A study of Mus musculus with 6 samples.

Results

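Methionine salvage and the methylation cycle were described across 10 genes of activated mouse B cells with and without hnRNPL, an RNA-binding protein of the nucleus. The genes were *Mtap*, *Mri1*, *Apip*, *Enoph1*, *Adi1*, *Mat2a*, *Mat2b*, *Ahcy*, *Amd1* and *Srm*, taken by name from the 55421 genes of the deposited table. The set was chosen from these same libraries, because *Mtap* was known to be far lower in hnRNPL-deficient cells, and the other 9 genes were added by their place in the pathway. Differences between the genotypes in these 10 genes are therefore given as a description, without p-values.

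Splenic B cells from 3 WT and 3 hnRNPL-deficient mice were cultured for 24 h with 5 µg/ml LPS and 5 ng/ml IL-4, which together activate B cells, and GFP+ cells were sorted for polyA RNA-seq. The WT mice were *CD21-cre* and the hnRNPL-deficient mice were *hnRNPL F/F CD21-cre*, so both groups carried the Cre transgene, and both carried the *Rosa mT/mG* reporter that turns on GFP after Cre has acted. Mice were males and females older than 6 weeks on the C57BL6/J background. *CD21-cre* acts late in B cell development, mostly in peripheral B cells and also in some other tissues, and the GFP gate reports that Cre acted on the reporter and not directly on *Hnrnpl*. Expression of *Hnrnpl* itself followed the labels, at 24371, 25580 and 24174 normalized counts in WT mice and 2178, 1519 and 1297 in hnRNPL-deficient mice, which left 6.74% of the WT mean. Values are reads per gene divided by a size factor for each library, called normalized counts here.

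Libraries held between 40395186 and 75180749 reads on genes, and hnRNPL-deficient replicate 3 was the shallowest. *Xist* exceeded the Y-linked *Ddx3y* in 1 library of each group, WT replicate 3 and hnRNPL-deficient replicate 2, so sex was balanced between the genotypes. All 8 B cell markers were abundant, and 2 passed the adjusted p in each direction. *Cr2*, which encodes CD21, was called higher (log2 fold change 0.85, SE 0.22, adjusted p = 0.0444 in limma), while *Cd22*, an inhibitory receptor of B cells, was lower by less than the minimum fold (-0.55, adjusted p = 0.00987 in limma). The 6 myeloid markers summed to between 260 and 331 normalized counts in WT and between 1239 and 1382 in hnRNPL-deficient libraries, nearly all from *Adgre1*, while *Lyz2* and *Cd14* reached at most 2.02 normalized counts and *S100a8* was at 0 in every library. T cell markers summed to at most 38.4 normalized counts, NK cell markers to at most 9.02 and erythroid markers to at most 83.8, of which *Hbb-bt* was called higher (12.2 to 44.1 normalized counts, log2 fold change 1.82, adjusted p = 0.0235 in limma). The 4 plasma cell markers summed to between 14221 and 16488 normalized counts in WT and between 13373 and 16508 in hnRNPL-deficient libraries. Most of this was *Xbp1* (means 13882 in WT and 13488 in hnRNPL-deficient libraries). Of these markers, *Jchain* was called lower at a low level (84.1 to 14.7, log2 fold change -2.31, adjusted p = 0.0509 in limma). The part of other cells in the results below was not tested. Sequencing bulk RNA cannot tell fewer cells expressing a gene from less RNA per cell.

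Cells use methionine to make S-adenosylmethionine (SAM), the methyl donor for nearly all methylation of DNA, RNA and protein. Methylation turns SAM into S-adenosylhomocysteine, which is broken down to homocysteine and can be rebuilt into methionine. A second use of SAM begins with its decarboxylation, after which its aminopropyl group goes to the polyamines spermidine and spermine and leaves methylthioadenosine. MTAP cleaves methylthioadenosine, and a short series of enzymes in the cytosol turns the released sugar phosphate back into methionine. Lymphocytes that enter the cell cycle take up methionine and make polyamines in large amounts.

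Promoter sequences from RefSeq on GRCm38.p6, the build of the deposited values, were available for 8 of the 10 genes. Each window ran from 250 bases before the RefSeq start to 50 bases after it. That start can differ from the GENCODE start in the gene coordinates given here, and for *Mtap* and *Mat2b* it lies inside the GENCODE gene. They were searched on both strands for 4 short motifs of general promoter factors. CCAAT, the box bound by NF-Y, was in 6 of the 8 windows and in 37.4% of all 32851 windows. GGGCGG, the GC box, was in 7 of the 8 and in 35.7% of all. TATAA was in 2 of the 8, those of *Amd1* and *Mat2a*, and in 24.9% of all. CACGTG, an E-box that MYC and related factors bind, was in the window of *Enoph1* alone among the 8 and in 7.15% of all. Short windows around a match are shown for *Mtap* (CCAAT, chr4:89137341-89137370, plus strand) and *Enoph1* (CACGTG, chr5:100039992-100040021, plus strand). Among the members, these were the salvage genes whose values were lower in every hnRNPL-deficient library. The *Mtap* match lies 17 bases before the RefSeq start but inside the GENCODE gene. The *Enoph1* match lies 10 bases after the RefSeq start, and that window also held CCAAT and GGGCGG. The stretches before the start of *Mat2a* (chr6:72439559-72439806, minus strand) and *Amd1* (chr10:40302189-40302438, minus strand) are shown because these were, after *Mtap*, the members with the lowest log2 fold changes. Capitals mark matches to any of the 4 motifs, where the run TTATATAA in *Amd1* joins overlapping matches to TATAA and its complement and the run CCGCCCGCCC in *Mat2a* joins 2 overlapping GC boxes. A match describes the letters of the window and is not evidence of a bound factor.
Mtap: ggaggagaacagCCAATcccgcgctccccg
Enoph1: cctccggctgccCACGTGgtccgggcctgc
Mat2a: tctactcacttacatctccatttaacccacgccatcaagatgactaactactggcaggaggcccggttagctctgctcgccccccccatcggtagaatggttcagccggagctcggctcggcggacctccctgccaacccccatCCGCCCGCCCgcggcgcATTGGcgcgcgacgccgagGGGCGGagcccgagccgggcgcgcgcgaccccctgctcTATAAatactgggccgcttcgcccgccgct
Amd1: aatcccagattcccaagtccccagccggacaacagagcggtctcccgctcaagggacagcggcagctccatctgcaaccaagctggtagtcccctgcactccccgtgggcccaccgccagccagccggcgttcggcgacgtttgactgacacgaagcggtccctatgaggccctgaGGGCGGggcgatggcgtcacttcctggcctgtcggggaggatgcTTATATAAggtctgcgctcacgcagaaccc

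*Mtap* (chr4:89137122-89181081, plus strand), which encodes methylthioadenosine phosphorylase, stood apart from the other 9 genes. The 3 WT libraries had 12783, 10204 and 9415 normalized counts, and the 3 hnRNPL-deficient libraries had 1868, 1783 and 1667. Even the highest hnRNPL-deficient library was far below the lowest WT library, and the hnRNPL-deficient libraries lay closer together than the WT libraries did. The mean fell from 10801 ± 1761 to 1773 ± 101 (SD, n = 3 each), to 16.4% of WT, a log2 fold change of -2.60 (SE 0.13). This was the 15th lowest log2 fold change of the 17640 genes tested. With each library left out in turn, the log2 fold change lay between -2.69 and -2.47.

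**Figure D1:**
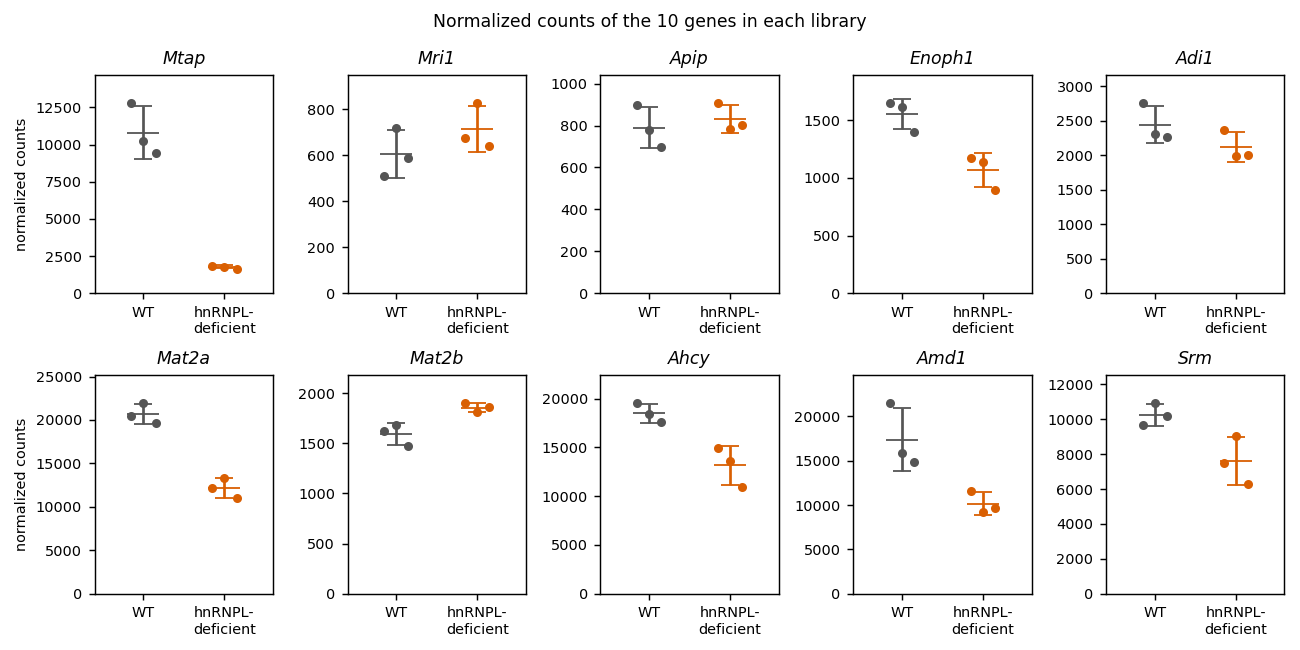
Normalized counts (vertical axes, each from 0) of the 10 genes in the 3 WT (grey) and 3 hnRNPL-deficient (orange) libraries; points are libraries, horizontal bars are means and error bars are SD. *Mtap* fell to 16.4% of WT, *Mat2a* and *Amd1* had separate groups with smaller differences, and the groups overlapped for *Mri1*, *Apip* and *Adi1*.

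The 4 members that act after MTAP in salvage did not share the size of its fall. *Mri1*, the isomerase of methylthioribose 1-phosphate (chr8:84249906-84257326, minus strand), was at 512, 718 and 590 normalized counts in WT and 677, 828 and 640 in hnRNPL-deficient libraries. The groups overlapped, with a log2 fold change of 0.24 (SE 0.17). *Apip*, the dehydratase of the next step (chr2:103073675-103092644, plus strand), was at 896, 776 and 698 normalized counts in WT and 907, 781 and 802 without hnRNPL. These groups overlapped as well, and the log2 fold change of 0.08 (SE 0.14) was smaller than its error and became -0.01 without WT replicate 3.

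*Enoph1*, the enolase-phosphatase (chr5:100039985-100068760, plus strand), was the single later salvage member with separate groups. Its level was 1647, 1611 and 1399 normalized counts in WT and 1173, 1134 and 895 in hnRNPL-deficient libraries, a mean of 68.8% of WT and a log2 fold change of -0.55 (SE 0.14). That is under the fold change of 1.5 used here to call a gene, which it passed without WT replicate 3 (-0.62), without hnRNPL-deficient replicate 1 (-0.62) or without hnRNPL-deficient replicate 2 (-0.60). *Adi1*, the dioxygenase that makes the keto acid precursor of methionine (chr12:28675231-28682175, plus strand), was at 2754, 2304 and 2265 normalized counts in WT and 2370, 1986 and 1997 in hnRNPL-deficient libraries. Its groups overlapped, because hnRNPL-deficient replicate 1 lay above WT replicates 2 and 3, and its log2 fold change was -0.20 (SE 0.12).

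SAM synthesis differed by subunit. *Mat2a*, the catalytic subunit of methionine adenosyltransferase outside the liver (chr6:72432799-72439558, minus strand), was at 20474, 21908 and 19644 normalized counts in WT and 12166, 13288 and 10993 in hnRNPL-deficient libraries. No library of one group reached the other, and the mean fell from 20675 ± 1145 to 12149 ± 1148 (SD, n = 3 each), a log2 fold change of -0.77 (SE 0.10). *Mat2b*, the regulatory subunit (chr11:40679314-40695203, minus strand), was at 1627, 1679 and 1473 normalized counts in WT and 1898, 1810 and 1861 without hnRNPL. It was the 1 member whose hnRNPL-deficient libraries all lay above the WT libraries, by a log2 fold change of 0.22 (SE 0.10), which is under the minimum fold. The ratio of *Mat2a* to *Mat2b* normalized counts within a library lay between 12.6 and 13.3 in WT and was 6.41, 7.34 and 5.91 in hnRNPL-deficient libraries.

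*Ahcy*, which hydrolyses S-adenosylhomocysteine (chr2:155059310-155074497, minus strand), was at 19504, 18460 and 17556 normalized counts in WT and 14929, 13553 and 10939 in hnRNPL-deficient libraries. The groups were separate, the hnRNPL-deficient mean was 71.0% of WT, and the log2 fold change of -0.50 (SE 0.13) stayed under the minimum fold except without hnRNPL-deficient replicate 1 (-0.60). The level of *Ahcy* is uncertain because near-identical copies can share its reads. *Gm4737* matched an *Ahcy* transcript at 99.7% identity over 2083 bases and had a WT mean of 11998 normalized counts, and *Gm9826* matched at 99.2% with a WT mean of 2091. *Gm4737* stood at 64.8% ± 3.64 of *Ahcy* in WT and 65.1% ± 4.41 in hnRNPL-deficient libraries (SD, n = 3 each). Summed over the 3 genes the level was 32596 ± 2327 in WT and 23141 ± 3034 without hnRNPL, or 71.0% of WT. Genes that share reads would differ by the same share, so this sum is no check on the difference of *Ahcy* alone.

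At the entry to polyamine synthesis, *Amd1*, which encodes the decarboxylase of SAM (chr10:40287458-40302186, minus strand), was at 21463, 15821 and 14847 normalized counts in WT and 11625, 9187 and 9675 in hnRNPL-deficient libraries. WT replicate 1 was well above the other WT libraries, yet the lowest WT library still exceeded the highest hnRNPL-deficient library. The mean fell from 17377 ± 3572 to 10163 ± 1290 (SD, n = 3 each), a log2 fold change of -0.76 (SE 0.16), which was -0.60 without WT replicate 1. *Amd1* also has close copies. *Amd2* matched it at 99.6% identity over 3202 bases and held 43.2% ± 1.13 of the *Amd1* count in WT and 42.4% ± 1.28 in hnRNPL-deficient libraries (SD, n = 3 each), so the 2 genes cannot be counted apart with confidence. Their sum was 24897 ± 5264 in WT and 14479 ± 1909 without hnRNPL, 58.2% of WT. The pseudogenes *Amd-ps3* and *Amd-ps4* matched *Amd1* at 99.9% and 99.5% over 1005 bases, with WT means of 2243 and 522. With both added, the sum without hnRNPL was 58.0% of WT. As for *Ahcy*, genes that share reads would differ by the same share, so these sums are no check on the difference of *Amd1* alone. The longest copy of *Mat2a* was *Gm9523*, which matched at 95.6% and was low (WT mean 234), and for the remaining 7 members no other gene's transcript matched at 95% or more over 100 bases.

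*Srm*, spermidine synthase (chr4:148591503-148594993, plus strand), was at 9667, 10913 and 10210 normalized counts in WT and 7512, 9035 and 6291 in hnRNPL-deficient libraries. All 3 hnRNPL-deficient libraries were lower than the WT libraries but spread widely, with a mean of 74.2% of WT and a log2 fold change of -0.44 (SE 0.14).

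Counted together, 3 of the 10 members were called lower (*Mtap*, *Mat2a* and *Amd1*) by limma (adjusted p under 0.1, fold 1.5 or more), against 4.08% of all genes tested. None was called higher, against 7.28% of all genes, and none had an unadjusted p under 0.05 in that direction in limma. Here and below, edgeR and DESeq2 were run without hnRNPL-deficient replicate 2. Without it, *Xist* exceeded *Ddx3y* only in a WT library, so sex was not balanced between the genotypes in these count tests. edgeR called 0 members higher, with 1 at an unadjusted p under 0.05, and DESeq2 called 0, with 0 at that level. The hnRNPL-deficient libraries were below the WT libraries without overlap in 6 members, where 16.3% of all genes were, and above in 1, where 17.7% were, and in 3 the groups overlapped. Because the contrast was used to choose the set, nothing is read from these counts. The median log2 fold change was -0.47 over the members and -0.03 over all genes tested. Within the groups, WT replicate 3 had the lowest value for 8 of the 10 members, and hnRNPL-deficient replicate 1 the highest of its group for 7.

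**Figure D2:**
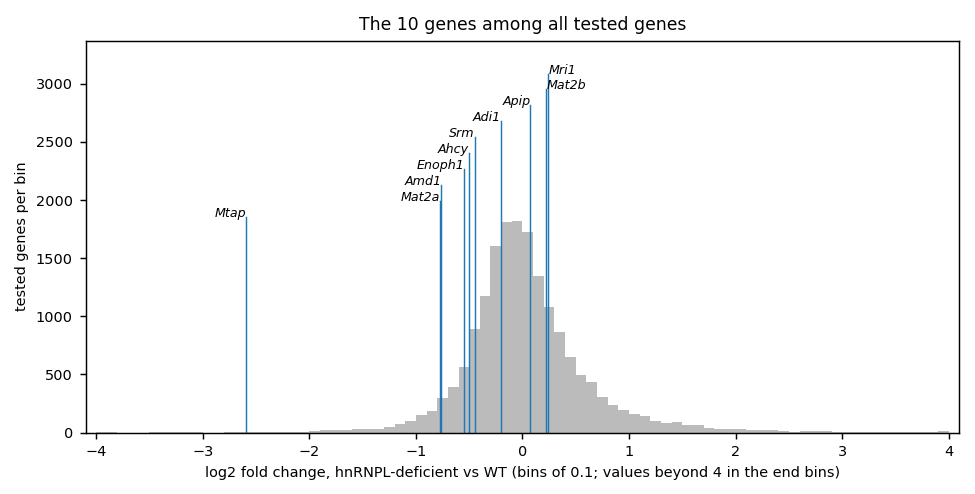
Number of tested genes (vertical axis) by log2 fold change between hnRNPL-deficient and WT libraries (horizontal axis, bins of 0.1), with blue lines at the 10 members; only the horizontal place of a line carries a value. *Mtap* at -2.60 lies in the left tail, and the other 9 lie between -0.77 and 0.24.

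Per kb of annotated exon, which allows genes to be set side by side, the WT order began with *Ahcy* at a mean of 6598 normalized counts per kb, *Srm* at 6419, *Amd1* at 4906, *Mat2a* at 4609 and *Mtap* at 3348. *Ahcy* and *Srm* overlapped across the WT libraries, as did *Amd1* and *Mat2a*, while every WT library of *Mtap* was below every WT library of these 4 genes. The later salvage members were lower, with *Adi1* at 1294, *Apip* at 790, *Enoph1* at 619 and *Mri1* at 185 normalized counts per kb, and *Mat2b* was at 319. In WT cells *Mtap* was thus expressed above *Adi1*, *Apip*, *Enoph1* and *Mri1*. In hnRNPL-deficient cells it stood at 579, 553 and 517 normalized counts per kb, below *Adi1* (mean 1123) and *Apip* (830) and above *Enoph1* (425), without overlap with any of the 3. Spermidine synthase releases the methylthioadenosine that MTAP cleaves, and the ratio of *Mtap* to *Srm* per kb was 0.655, 0.464 and 0.457 in WT and 0.123, 0.0978 and 0.131 in hnRNPL-deficient libraries. Exon length is the union over annotated transcripts, which need not be those these cells make, and the levels of *Ahcy* and *Amd1* carry the uncertainty of their copies.

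**Figure D3:**
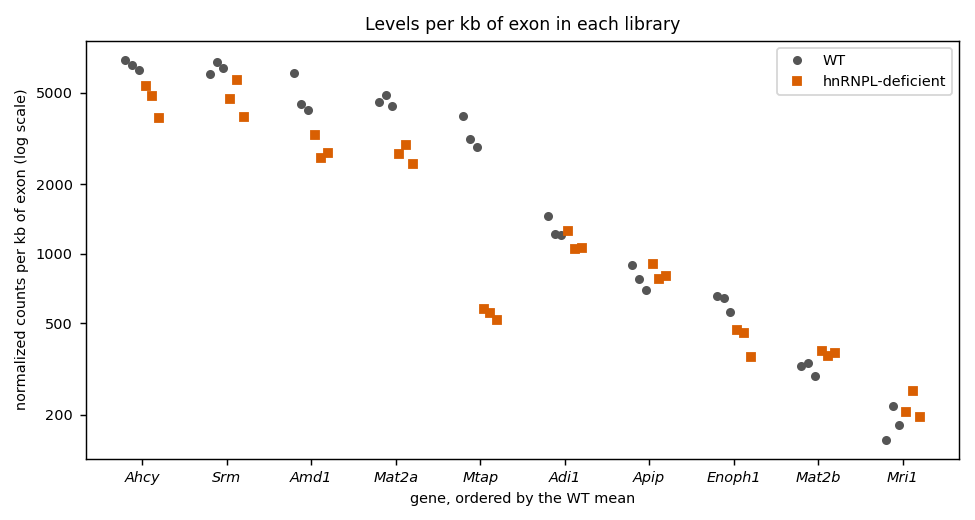
Normalized counts per kb of exon (log scale) of the 10 genes in each WT library (grey circles) and hnRNPL-deficient library (orange squares), ordered by the WT mean. *Mtap* lies above *Adi1* and *Apip* in WT libraries and below both in hnRNPL-deficient libraries.

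The surrounding pathway was read from 4 further lists of 56 genes in all, of which 46 were abundant enough to test. Of these, 3 were called lower and 3 higher, beside 4.08% and 7.28% of all genes tested, and the median log2 fold change was -0.24. By sign, 34 had a negative and 12 a positive log2 fold change, beside 9304 and 8336 of the 17640 genes tested. These lists were drawn up with earlier results of the same libraries known.

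Among other genes of the methionine cycle and of transsulfuration, 1 of 13 tested was called lower (4.08% of all genes), none higher (7.28% of all genes) (limma; 2 had an unadjusted p under 0.05 in that direction, and edgeR and DESeq2 called 0), and the median was -0.26. The called gene was *Ahcyl2*, a relative of *Ahcy*, with 3058, 2743 and 2582 normalized counts in WT and 1739, 1548 and 2052 without hnRNPL (log2 fold change -0.66, SE 0.13, adjusted p = 0.0165 in limma). Its fold was under 1.5 in limma without hnRNPL-deficient replicate 2 (-0.56). It was also under 1.5 in edgeR (-0.52) and DESeq2 (-0.54), which left out that same library. *Ahcyl1*, from the same family, had a log2 fold change of -0.04 (SE 0.13, adjusted p = 0.863 in limma), and its sign turned under both other scalings. *Mtr*, which rebuilds methionine from homocysteine, gave -0.27 (SE 0.10, adjusted p = 0.119 in limma). *Mettl16*, the RNA methyltransferase known to control *MAT2A* splicing and stability, was at 6410, 6567 and 6034 normalized counts in WT and 4581, 4820 and 4342 without hnRNPL. Its log2 fold change of -0.47 (SE 0.09) passed the adjusted p (0.0152 in limma) but not the minimum fold.

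Of 17 polyamine and hypusine genes tested, 1 was called lower and 3 higher, beside 4.08% and 7.28% of all genes. The lower one was *Amd2* (log2 fold change -0.79, SE 0.17, adjusted p = 0.0216 in limma), which as a close copy of *Amd1* can share its reads. *Atp13a2*, a lysosomal polyamine exporter, rose from 790, 1039 and 1016 normalized counts in WT to 1657, 1998 and 1298 (log2 fold change 0.79, SE 0.18, adjusted p = 0.0277 in limma). *Smox*, spermine oxidase, rose from a very low 6.40 ± 1.57 to 33.0 ± 9.61 normalized counts (SD, n = 3 each), a log2 fold change of 2.19 on the log2(value + 1) scale (SE 0.39, adjusted p = 0.0105 in limma). *Azin2*, an antizyme inhibitor, was also low and rose from 15.7 ± 5.27 to 41.2 ± 6.44 normalized counts (SD, n = 3 each; log2 fold change 1.37, adjusted p = 0.0386 in limma), a call lost in DESeq2 (adjusted p = 0.104) and without WT replicate 3 (adjusted p = 0.129).

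The main enzymes of polyamine synthesis and breakdown gave smaller differences. *Odc1*, ornithine decarboxylase, was at 16042, 13258 and 12909 normalized counts in WT and 11378, 9926 and 10050 in hnRNPL-deficient libraries. The groups were separate, and the log2 fold change of -0.42 (SE 0.11, adjusted p = 0.0478 in limma) was under the minimum fold. *Sms*, spermine synthase, gave -0.30 (SE 0.13, adjusted p = 0.164 in limma) and *Sat1*, the acetyltransferase that starts polyamine breakdown, gave 0.45 (SE 0.13, adjusted p = 0.0599 in limma). The median log2 fold change over the 17 genes was -0.18.

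The methylosome built around PRMT5, an arginine methyltransferase that methylthioadenosine is known to inhibit, had 0 of 8 genes called in limma. Over all genes tested, 4.08% were called lower and 7.28% higher. In limma 4 had an unadjusted p under 0.05, all lower, and 2 of these passed the adjusted p but not the minimum fold. In 4 genes the hnRNPL-deficient libraries were below the WT libraries without overlap, beside 16.3% of all genes. The median log2 fold change was -0.23. edgeR and DESeq2 also called 0, each with 2 at an unadjusted p under 0.05. *Prmt5* itself was at 7904, 7883 and 7102 normalized counts in WT and 6810, 7173 and 5921 in hnRNPL-deficient libraries, groups that overlapped (log2 fold change -0.20, SE 0.11, adjusted p = 0.251 in limma).

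Of 8 tested genes for the uptake of methionine and related amino acids, 1 was called lower, beside 4.08% of all genes, and the median was -0.27. *Slc1a5*, a glutamine and neutral amino acid transporter, fell from 5902, 6856 and 6779 normalized counts in WT to 3301, 3932 and 3673 in hnRNPL-deficient libraries, 55.8% of the WT mean (log2 fold change -0.84, SE 0.11, adjusted p = 0.00288 in limma). *Slc7a5*, the catalytic chain of the LAT1 transporter that carries methionine, was at 11910, 14775 and 12706 normalized counts in WT and 8793, 10638 and 7895 without hnRNPL. Its log2 fold change was -0.53 (SE 0.13, adjusted p = 0.0383 in limma), under the minimum fold. It was called by edgeR (-0.62) and DESeq2 (-0.64), both without hnRNPL-deficient replicate 2. Limma also called it without that library (-0.65) or without WT replicate 1 (-0.60), and in no other alternative. None of the 8 was called higher in limma, where 1 had an unadjusted p under 0.05 in that direction, or in edgeR or DESeq2, where 0 had.

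**Figure D4:**
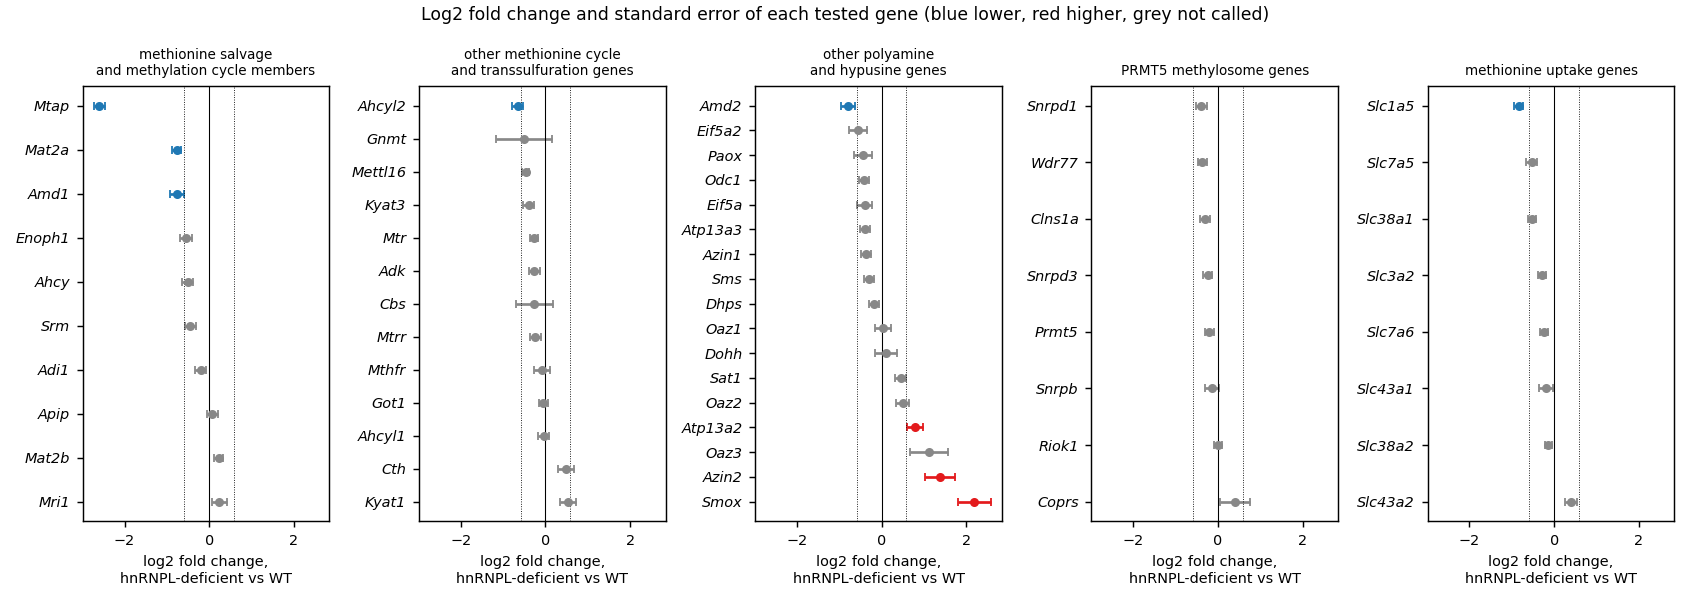
Log2 fold change between hnRNPL-deficient and WT libraries (horizontal axes) with its standard error for each tested gene of the 5 lists; blue genes were called lower, red genes higher and grey genes were not called, and dotted lines mark a fold change of 1.5. *Mtap* at -2.60 has the lowest value in the 5 panels, and red genes appear in the polyamine panel alone.

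At the *Mtap* locus, the genes nearest to *Mtap* in the annotation (*Gm12602*, *Gm26490*, *Tgif2-ps1* and *Gm12606*) and the pseudogene *Gm12607* on the opposite strand inside it held at most 3.46 normalized counts in any library. The cell cycle inhibitor genes farther along went the other way from *Mtap*. *Cdkn2b* rose from 51.1, 67.4 and 50.5 normalized counts in WT to 150, 135 and 186 (log2 fold change 1.46, SE 0.24, adjusted p = 0.00761 in limma). *Cdkn2a* was at 17.4, 5.19 and 7.65 normalized counts in WT and 32.5, 21.2 and 20.6 in hnRNPL-deficient libraries, which did not pass the test (log2 fold change 1.34, SE 0.48, adjusted p = 0.112 in limma).

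Overlapping genes were low at the other members. *Particl* (chr6:72439051-72440610), on the strand opposite to *Mat2a* and overlapping its start, fell from 112 ± 20.8 to 54.6 ± 7.93 normalized counts (SD, n = 3 each; log2 fold change -1.02, SE 0.25, adjusted p = 0.0371 in limma). Reads were counted by strand, but the WT level of *Particl* was small beside the 20675 of *Mat2a*, and reads of *Mat2a* placed on the wrong strand were not tested as its source. *Gm45609* at *Ahcy* had at most 8.22 normalized counts, and *Gm26363* at *Enoph1* and *Mir6937* at *Adi1* were at 0.

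The genes whose pattern was most like that of *Mtap* were *Pfkl*, *Trip13* and *Pld4*. Likeness was the root mean square distance, over the 6 libraries, of log2(normalized count + 1) less its WT mean, among the 8949 genes that averaged 500 normalized counts or more. The distance to *Mtap* was 0.192 for *Pfkl*, the liver-type subunit of phosphofructokinase, which went from 3867, 4321 and 3794 normalized counts in WT to 571, 669 and 644. It was 0.297 for *Trip13*, an AAA ATPase of the mitotic checkpoint, which went from 3195, 2259 and 2025 to 656, 512 and 400. *Pld4*, of the phospholipase D family, was at 0.321 and went from 1866, 2129 and 2462 to 481, 453 and 334. This is a description of 6 libraries that share the same 2 groups.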

How the data were processed

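RNA-seq of GFP+ activated B cells from 3 WT and 3 hnRNPL-deficient mice was analysed, grouped by the labels. The authors trimmed reads with fastp, aligned them to mm10 with STAR, counted them per gene and strand with featureCounts (GENCODE vM23) and divided them by DESeq2 size factors, and how reads with several matches were counted is not given in the sources used here. The deposited values, a signal, are these normalized counts. Columns of the authors' own comparison (fold changes, p-values) were not used.

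Reads were recovered exactly (100% of values within 0.02 of a whole number), giving 40395186 to 75180749 reads on genes per library. The main test was limma 3.58.1 with a mean-variance trend, on log2 of the normalized count plus a pseudocount of 1, for the 17640 genes averaging 10 or more, with Benjamini-Hochberg adjustment over all of them; calls needed adjusted p under 0.1 and 1.5-fold or more. An exact permutation test of 1 gene cannot go below 0.1 with 3 against 3. edgeR 4.0.16 (quasi-likelihood) and DESeq2 1.42.0 ran on the reads of 5 libraries as alternatives, leaving out hnRNPL-deficient replicate 2. Its reads were recovered like the others, as whole multiples of 1.01. It was left out because a separate automatic check for whole reads could not read a column with a value so close to 1. Methods were checked on simulated data without variation shared between libraries, and with changes larger than 1.5-fold in genes averaging 50 or more. That check does not cover changes near 1.5-fold or genes as low as *Smox* and *Azin2*. The members and lists were chosen with earlier results of these data known.

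Named genes were the 10 members; listed genes that were called, with *Odc1*, *Sms*, *Sat1*, *Mtr*, *Mettl16*, *Prmt5*, *Slc7a5* and *Ahcyl1* in any case; genes overlapping a member or next to *Mtap*, with *Cdkn2a* and *Cdkn2b*; and the 3 most like *Mtap*. Copies were transcripts of GENCODE vM21 matching at 95% or more over at least 100 bases (BLAST), and coordinates come from that release on GRCm38. Those copies and the sex genes were looked up after the data were seen. Alternatives were pseudocounts of 0.5 and 5, other filters, equal totals, quantile normalization, a replicate block, no trend, both count tests, each library left out and, added after seeing the data, sex as a term.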

Additional observations from a re-analysis of the deposited data

How the results depend on the processing

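Of 17 alternatives, all kept the direction and call of *Mtap* (log2 fold change -2.69 to -2.47). Without each library in turn, all genes called higher ranged from 850 (without WT replicate 3) to 1124, against 1284 with all 6, and members called lower from 3 to 5 (without hnRNPL-deficient replicate 1, where *Enoph1* and *Ahcy* passed). Among other listed genes, 1 was called higher when genes had to average 50 normalized counts, because *Smox* and *Azin2* were then not tested. The sign of *Apip* was reversed without WT replicate 3 (-0.0099), and the others gave up to 0.17. *Ahcyl1* was reversed with equal totals (0.015), quantile normalization (0.083), edgeR (0.029), DESeq2 (0.0067), without WT replicate 1 (0.091) and without hnRNPL-deficient replicate 2 (0.0030), and gave -0.12 without WT replicate 3. The cause was not tested. With the replicate block, 1018 genes were called lower and 1755 higher, against 719 and 1284, and the log2 fold change of *Mtap* was -2.60. Whether the numbers pair the mice was not settled: correlations of same-numbered deviations were 0.43, 0.32 and 0.07. Each hnRNPL-deficient replicate correlated best with its own number, but WT replicate 3 correlated best with hnRNPL-deficient replicate 2 (0.31). With sex as a term, 650 genes were called lower and 1145 higher. Depth limits the low genes *Smox*, *Azin2* and *Cdkn2a*.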
